A study of Mus musculus with 6 samples.

Results

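Long noncoding RNAs were followed in mouse embryonic stem cells after knockdown of Trim71 (Lin41), which binds messenger RNAs and carries a ubiquitin ligase domain. The transcripts were of 3 kinds: Platr transcripts, host genes of small nucleolar RNAs (the Snhg genes, Gas5 and Dancr), and the transcripts Malat1, Mir17hg and Lincmd1. They were chosen by a rule on gene symbols that was set with earlier results of these data known. Of 34760 probe sets on the array, 23 carried such a symbol. Of these 23, 18 had 1 gene symbol and stood for 12 genes, and 5 had several symbols and are given apart. Together they touched 15 genes, all of which were found in the RefSeq gene table.

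The series held 6 single-colour arrays, 3 of Trim71 knockdown cells and 3 of control cells. The knockdown cells were transfected with pooled siRNAs directed at Trim71 and were harvested after 72 h, and RNA was then amplified with a whole-transcript kit. The controls are labelled wild-type and parental, while the protocol also names a non-targeting siRNA, so whether these control cells were transfected is not settled by the labels. The labels name neither a cell line nor separate cultures for the replicates, so p-values measure only the spread between these arrays, which may be technical. The targeted transcript checked the labels: Trim71 stood at 9.00, 8.95 and 8.98 (log2) on the knockdown arrays, against 10.48, 10.50 and 10.51 on the control arrays (exact two-sided permutation p = 0.1, the smallest possible with 3 arrays in each group). The median log2 level was 6.27 to 6.31 on the knockdown arrays and 6.26 on each control array. Knockdown array 3 stood apart, with an upper quartile of 8.42, against 8.32 to 8.35 on the other 5 arrays.

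Small nucleolar RNAs (snoRNAs) guide chemical modification of ribosomal RNA, and many of them are cut from the introns of host genes. In the hosts followed here, the Snhg genes, Gas5 and Dancr, the spliced exons are mostly noncoding. Several of these host transcripts begin with a run of pyrimidines, as the messages for ribosomal proteins do, and are removed by nonsense-mediated decay when they are translated. Platr stands for pluripotency associated transcript, a name given to noncoding RNAs of embryonic stem cells whose levels fall on differentiation. Malat1 is an abundant nuclear RNA of splicing speckles, and Mir17hg is the primary transcript of the miR-17-92 microRNA cluster, which promotes proliferation.

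The sequences that bear on the results were taken from the RefSeq tables of build GRCm38.p6. Of the 15 genes, 14 had a promoter in that table, and 1 such promoter is shown, that of Platr8, because Platr8 was the only transcript of the 23 probe sets that passed the test. It runs from 250 bases before the annotated start to 50 bases from it, at chr2:109913270-109913569 on the minus strand, and capitals mark a CCAAT box and a SOX core.
Platr8 promoter: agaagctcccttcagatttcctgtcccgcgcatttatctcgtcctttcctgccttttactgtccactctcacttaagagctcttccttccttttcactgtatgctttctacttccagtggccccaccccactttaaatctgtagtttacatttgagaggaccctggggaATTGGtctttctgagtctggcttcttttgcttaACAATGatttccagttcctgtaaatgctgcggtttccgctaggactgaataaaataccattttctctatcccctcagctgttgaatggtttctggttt

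The letters searched, on both strands, were CCAAT for the CCAAT box, CATTGT for the SOX core, ATGCAAAT for the octamer bound by Oct4, CACGTG for the E-box and TATAAA for the TATA box. No letters of these motifs overlap in the Platr8 promoter. CCAAT was found in 37.4% of the 32851 promoters in the table, CATTGT in 12.6%, ATGCAAAT in 1.74%, CACGTG in 7.15% and TATAAA in 13.6%. Among the 16 promoters of the genes studied here, CCAAT was found in 4, CATTGT in 4, TATAAA in 4, CACGTG in 1 and ATGCAAAT in 0. These matches describe the letters only.

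A start of C followed by at least 4 more pyrimidines, the pattern of a terminal oligopyrimidine start, was found in 4 of the 16 promoters and in 2.51% of all promoters. The 4 were those of Gas5, Snhg7, Snhg8 and the microRNA host Lincmd1. The annotated starts of the snoRNA hosts Dancr, Snhg5, Snhg11, Snhg15, Snhg16 and Snhg17 did not have the pattern. The starts of Gas5, Snhg7 and Snhg8 are shown because the snoRNA hosts are discussed as a group. They are given with 10 bases before the start, then 30 from it and the pyrimidines in capitals. They lie at chr1:161035156-161035195 on the plus strand, chr2:26640215-26640254 on the minus strand and chr3:123508307-123508346 on the minus strand.
Gas5: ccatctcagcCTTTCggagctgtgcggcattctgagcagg
Snhg7: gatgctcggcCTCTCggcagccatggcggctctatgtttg
Snhg8: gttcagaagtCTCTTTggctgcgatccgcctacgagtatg

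The mature microRNAs of the cluster around Mir17hg on chromosome 14 are shown because probe sets named for them read the same transcript. They lie within chr14:115043684-115044496 on the plus strand. Capitals mark the seed, bases 2 to 8, which pairs with targets. The microRNAs miR-17-5p and miR-20a-5p share a seed, as do miR-19a-3p and miR-19b-3p.
mmu-miR-17-5p: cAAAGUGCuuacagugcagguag
mmu-miR-20a-5p: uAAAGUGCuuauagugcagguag
mmu-miR-18a-5p: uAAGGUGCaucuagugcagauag
mmu-miR-19a-3p: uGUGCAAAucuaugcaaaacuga
mmu-miR-19b-3p: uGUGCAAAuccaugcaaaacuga
mmu-miR-92a-3p: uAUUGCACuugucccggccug

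The first comparison asked which long noncoding RNAs differed after the knockdown. Of the 23 probe sets, 1 was called lower, Platr8, and 0 were called higher in limma at an adjusted p under 0.05. Over all 34760 probe sets, 0.386% were called lower and 0.765% higher, 1.15% in all. With an unadjusted p under 0.05, 4 of the 23 passed, Platr8, Platr25, Malat1 and Snhg5, against 13.9% of all probe sets. The arrays of both groups were fully separate for 5 of the 23, against 21% of all probe sets, which is about the same share. Of the 5, 2 lay above the controls, against 12.2% of the table, and 3 lay below, against 8.78%. The median difference was −0.04 (log2) over the 23 and 0.01 over the table, and 16 of the 23 differences were below 0.

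**Figure D1:**
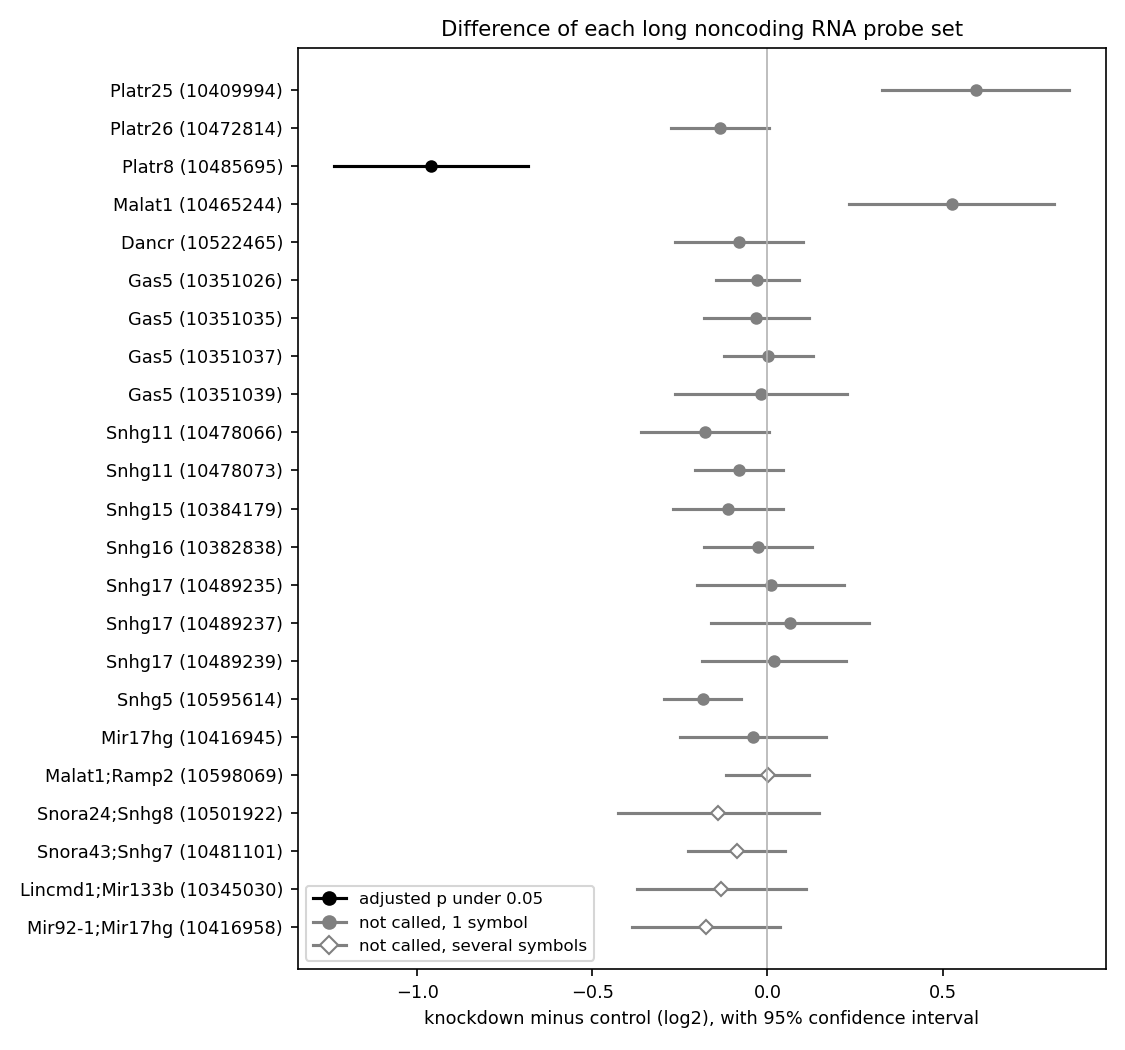
Difference between knockdown and control (log2) of each of the 23 probe sets, with the 95% confidence interval of the limma fit; filled circles have 1 gene symbol and open diamonds several, and black marks an adjusted p under 0.05. Platr8 is lowest at −0.96, Platr25 and Malat1 lie at 0.59 and 0.53, and the snoRNA hosts lie close to 0.

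The Platr transcripts held the largest differences in each direction among the 23 probe sets. RefSeq lists 18 Platr genes, of which 3 were named by a probe set here, Platr8, Platr25 and Platr26, each by 1 probe set with 1 symbol. Platr8 fell and the other 2 did not pass the test. The values of the knockdown and control arrays were separate for all 3, against 21% of all probe sets.

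Platr8, a noncoding RNA annotated on chromosome 2 between Lin7c and Lgr4, stood at 6.71, 6.44 and 6.87 (log2) on knockdown arrays 1 to 3, against 7.66, 7.67 and 7.57 on control arrays 1 to 3. Each knockdown value lay well below each control value, and the spread was wider in the knockdown group. The group means were 6.67 ± 0.22 in knockdown cells and 7.63 ± 0.052 in control cells (SD, n = 3 each). Platr8 fell by 0.96 on the log2 scale (SE 0.11, 95% confidence interval −1.24 to −0.68, limma adjusted p = 0.0324). Knockdown cells thus kept 51.4% of the Platr8 signal (interval from 42.4 to 62.3%), which is 1.95-fold lower. The exact two-sided permutation p was again 0.1.

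The direction and size of the Platr8 difference held with any array left out, between −0.84 without knockdown array 2 and −1.06 without knockdown array 3. The call did not. Its adjusted p in limma was 0.151, 0.166 and 0.124 without control array 1, 2 or 3, and 0.0994, 0.0899 and 0.0487 without knockdown array 1, 2 or 3. Over the whole table, 3, 1 and 2 probe sets were called without control array 1, 2 or 3, and 1, 1 and 93 without knockdown array 1, 2 or 3, against 400 with all 6 arrays.

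Platr25, which RefSeq places on chromosome 13 as a miscellaneous RNA, lay above its controls. It stood at 7.64, 7.92 and 7.98 (log2) on the knockdown arrays, against 7.23, 7.38 and 7.14 on the control arrays. The lowest knockdown value was above the highest control value. The difference was 0.59 (SE 0.11, 95% confidence interval 0.33 to 0.86), 1.51-fold, and it did not pass in limma over all probe sets (adjusted p = 0.0717). It passed when the table was reduced to 1 probe set per gene, 19937 in all (adjusted p = 0.0186), a fit in which 5.53% of genes were called. Its group means were 7.85 ± 0.18 in knockdown cells and 7.25 ± 0.12 in control cells (SD, n = 3 each). RefSeq places the microRNA gene Mir713 inside the span of Platr25, and its 3 probe sets had differences of 0.07, 0.03 and −0.01, none of them called in limma (adjusted p from 0.635 to 0.979).

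Platr26, on chromosome 2 between Dlx2 and Itga6, stood at 5.91, 5.88 and 5.79 (log2) on the knockdown arrays, against 6.04, 5.94 and 6.01 on the control arrays. The groups were separate but by a small margin. The difference was −0.14 (SE 0.057, 95% confidence interval −0.28 to 0.0032, limma adjusted p = 0.369), and no alternative fit called it.

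**Figure D2:**
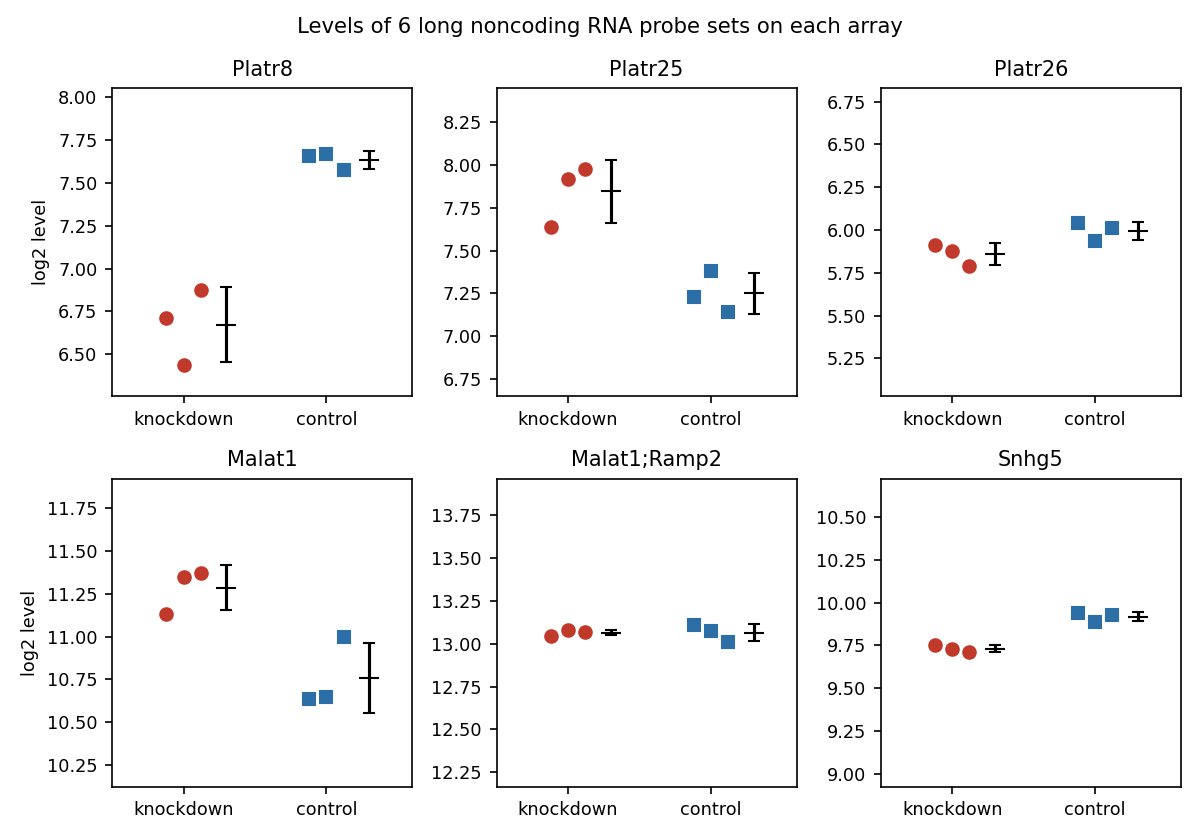
Log2 level of 6 probe sets on each array, knockdown left (circles) and control right (squares), with the mean and SD of 3 arrays beside them; every panel spans the same log2 range. Platr8 is lower and Platr25 and Malat1 are higher on all knockdown arrays, while the probe set shared by Malat1 and Ramp2 lies near 13.1 on all 6 arrays.

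Malat1 was named by 2 probe sets, of which 1 also names Ramp2, and they did not give the same picture. The probe set with Malat1 alone stood at 11.13, 11.35 and 11.37 (log2) on the knockdown arrays, against 10.64, 10.64 and 11.00 on the control arrays. The groups were separate, with control array 3 nearest to the knockdown values. The difference was 0.53 (SE 0.12, 95% confidence interval 0.23 to 0.82), 1.44-fold, and it was not called in limma over all probe sets (adjusted p = 0.115). It was called with 1 probe set per gene (adjusted p = 0.038). Left-out arrays moved the value between 0.47 without control array 1 or 2 and 0.64 without control array 3.

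The second probe set, annotated to both Malat1 and Ramp2, a receptor-activity-modifying protein gene, stood at 13.05, 13.08 and 13.07 (log2) on the knockdown arrays, against 13.11, 13.08 and 13.01 on the control arrays. The groups overlapped and the difference was 0.00052 (SE 0.049, 95% confidence interval −0.12 to 0.12, limma adjusted p = 0.998). This reading was close to the top of the scale, since the highest value in the whole table was 13.53 and only 21 probe sets had a higher mean. Whether it could still register an increase was not tested.

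Proteins of the nuclear bodies in which Malat1 and the related RNA Neat1 reside were looked up from a list of 13, of which 11 were measured. In limma 0 of the 11 were called, and 3 had an unadjusted p under 0.05, against 13.9% of all probe sets. The median difference of the 11 was 0.02 (log2). The paraspeckle protein gene Pspc1 was nearest to a call, at 9.66, 9.73 and 9.73 in knockdown cells and 9.37, 9.44 and 9.41 in control cells (adjusted p = 0.0572), and was called with 1 probe set per gene. No probe set used here carried the symbols Neat1, Epb41l4aos, Miat or Hotair, so these 4 of the 8 RNAs named in the rule were not analysed here.

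The snoRNA host genes tie noncoding transcripts to ribosome production. They were measured by 13 probe sets with 1 symbol for 7 genes, Gas5, Dancr, Snhg5, Snhg11, Snhg15, Snhg16 and Snhg17, and by 2 probe sets with several symbols, for Snhg7 and Snhg8. In limma 0 of the 13 were called, and 1, Snhg5, had an unadjusted p under 0.05, against 13.9% of all probe sets. Their differences ran from −0.18 to 0.06 (log2) around a median of −0.03. All 95% confidence intervals lay between −0.36, the lower bound of a Snhg11 probe set, and 0.29, the upper bound of a Snhg17 probe set. Larger changes in either direction are thus outside the intervals of these 13 probe sets.

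Gas5, a host gene that accumulates in growth-arrested cells, was read by 4 probe sets. The brightest stood at 10.66, 10.62 and 10.73 (log2) on the knockdown arrays, against 10.70, 10.67 and 10.64 on the control arrays. The groups overlapped on all 4 probe sets. Their differences ran from −0.03 to 0.0020, with limma adjusted p-values from 0.869 to 0.994. The snoRNA Snord47, encoded inside Gas5, had a difference of 0.02 (limma adjusted p = 0.966).

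Snhg5, host of the U50 snoRNAs, was the exception within the group in how tightly its arrays lay. It stood at 9.75, 9.73 and 9.71 (log2) on the knockdown arrays, against 9.94, 9.89 and 9.93 on the control arrays. The groups did not overlap, and the SD was 0.021 in knockdown cells and 0.026 in control cells. The difference was −0.18 (SE 0.045, 95% confidence interval −0.29 to −0.07), which left 88.0% of the control level, and it was not called in limma over all probe sets (adjusted p = 0.133). It was called in the bright part of the table (adjusted p = 0.0358) and with a trended prior (adjusted p = 0.0324).

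Snhg11, whose transcript is best known from neurons, was read by 2 probe sets with differences of −0.18 and −0.08 (log2), and neither was called in limma (adjusted p = 0.371 and 0.568). The first stood at 6.77, 6.81 and 7.01 on the knockdown arrays and 7.05, 6.99 and 7.08 on the control arrays, where knockdown array 3 overlapped the controls. Snhg15 stood at 9.47, 9.41 and 9.58 in knockdown cells and 9.63, 9.64 and 9.52 in control cells, a difference of −0.11 (adjusted p = 0.527). Its groups overlapped as well.

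Snhg16 was at 8.53, 8.55 and 8.71 (log2) on the knockdown arrays and at 8.65, 8.62 and 8.60 on the control arrays, a difference of −0.03 (limma adjusted p = 0.914). Snhg17 was read by 3 probe sets with differences of 0.01, 0.06 and 0.02 (adjusted p from 0.836 to 0.981). Dancr, a host gene known for holding progenitor cells undifferentiated in human tissues, stood at 8.80, 8.85 and 9.00 in knockdown cells and 8.90, 8.93 and 9.07 in control cells, a difference of −0.08 (adjusted p = 0.714). In each of these genes the 2 groups overlapped.

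Both probe sets with several symbols were also below their controls on average without being called in limma. The probe set of Snora43 and Snhg7 stood at 9.86, 9.93 and 9.89 (log2) on the knockdown arrays and 9.90, 10.04 and 10.02 on the control arrays (difference −0.09, adjusted p = 0.574). The probe set of Snora24 and Snhg8 stood at 8.26, 8.23 and 8.45 on the knockdown arrays and 8.22, 8.55 and 8.59 on the control arrays (difference −0.14, adjusted p = 0.682). In these probe sets the host and its snoRNA cannot be told apart.

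Over the 15 host probe sets, individual arrays moved together. Knockdown array 3 was the highest of the knockdown arrays in 13 of 15, against 47.3% of all probe sets, and control array 1 was the lowest control in 8 of 15, against 33.6%. The same arrays stood out in the 53 snoRNA probe sets with 1 symbol, in 49 and 38 of 53. Relative to the mean of the 6 arrays, the median snoRNA probe set lay at −0.10, −0.02 and 0.14 (log2) on knockdown arrays 1 to 3, against −0.09, 0.04 and 0.04 on control arrays 1 to 3. Without knockdown array 3, 14 of the 15 host probe sets were below their controls, with a median of −0.09, against 11 of 15 and a median of −0.03 with all arrays, and 0 were called either way in limma. The part of this array in the host values was otherwise not tested.

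**Figure D3:**
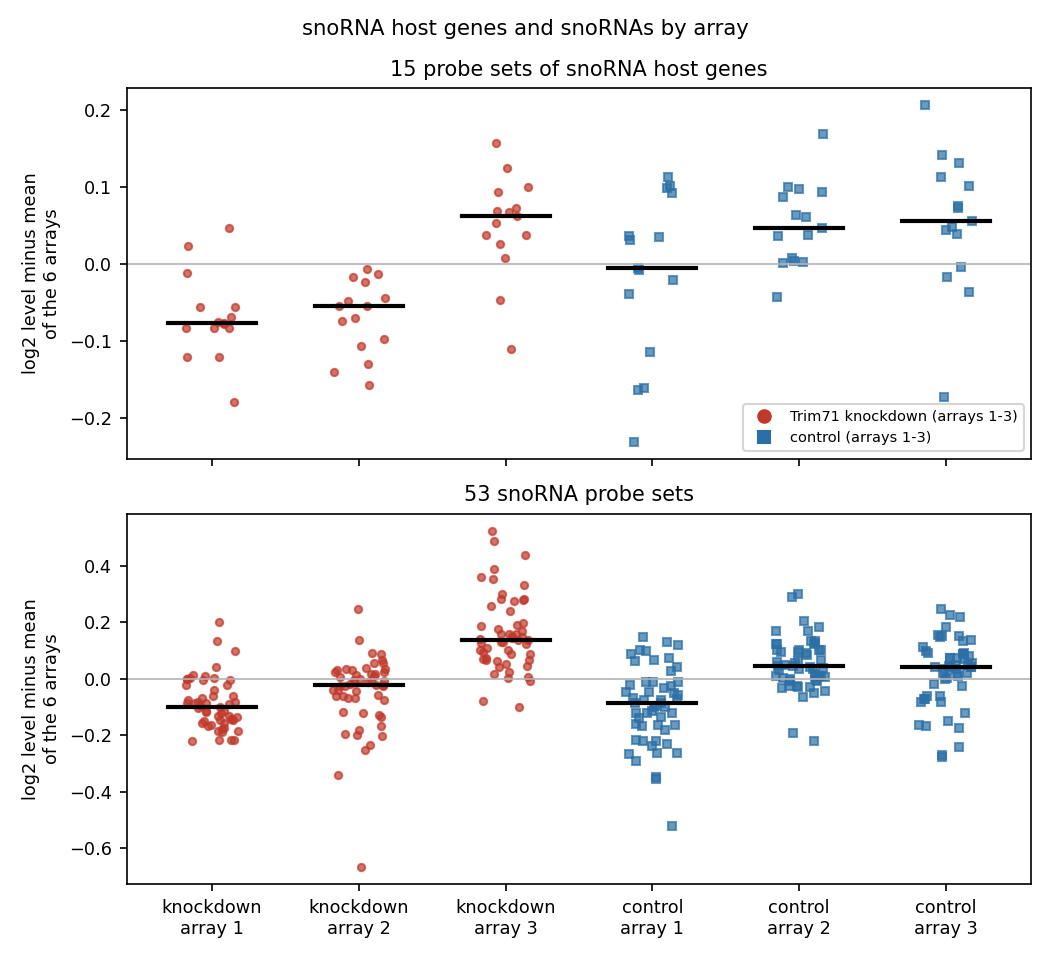
Log2 level of each probe set on each array minus its mean over the 6 arrays, for 15 probe sets of snoRNA host genes (top) and 53 snoRNA probe sets (bottom), with the knockdown arrays left (circles), the control arrays right (squares) and the median as a black bar. In the top panel the median of knockdown array 3 is 0.06, near control arrays 2 and 3 at 0.05 and 0.06. Knockdown arrays 1 and 2 lie lower there, at −0.08 and −0.06. In the bottom panel knockdown array 3 is highest at 0.14, and control array 1 is low among the controls.

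Of the snoRNAs that RefSeq places inside a host gene of this kind, 8 had a probe set with 1 symbol, spread over 6 hosts. Of these 6 only Gas5 was itself named by a probe set, while Snhg1, Snhg3, Snhg4, Snhg6 and Snhg12 were not. In limma 0 of the 8 snoRNAs were called, and 1 had an unadjusted p under 0.05, against 13.9% of all probe sets. That was Snora73a, 1 of the 2 snoRNAs measured in Snhg3, at 10.69, 10.55 and 10.75 (log2) in knockdown cells and 10.84, 10.83 and 10.84 in control cells (adjusted p = 0.31). Its neighbour in the same host, Snora73b, had a difference of −0.20 (adjusted p = 0.38). Among all 53 snoRNA probe sets, 31 differences were above 0 and 22 below, with a median of 0.02. Of the 53, 1 was called higher in limma, against 0.765% of all probe sets. That was Snord14e, which rose by 0.48 (SE 0.047, adjusted p = 0.0213), and none of the hosts studied here contains it.

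Of 15 measured proteins that bind or assemble snoRNAs, 0 were called in limma and 3 had an unadjusted p under 0.05, with a median difference of 0.02 (log2). Of 11 measured nonsense-mediated decay factors of 15 listed, 0 were called and 2 had an unadjusted p under 0.05, with a median of −0.00012. Of 15 measured ribosomal protein genes, whose transcripts share the pyrimidine start of some hosts, 0 were called and 0 had an unadjusted p under 0.05, with differences from −0.07 to 0.06. With 1 probe set per gene the called counts were 0, 1 and 0, against 5.53% of all genes. Over all probe sets 13.9% had an unadjusted p under 0.05.

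The microRNA hosts were Mir17hg and Lincmd1. Mir17hg stood at 7.77, 7.67 and 7.81 (log2) on the knockdown arrays, against 7.80, 7.93 and 7.64 on the control arrays. The groups overlapped, and the difference was −0.04 (SE 0.086, limma adjusted p = 0.896). The probe set of Mir92-1 and Mir17hg stood at 7.62, 7.48 and 7.75 on the knockdown arrays and 7.72, 7.77 and 7.89 on the control arrays (difference −0.18, adjusted p = 0.449).

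The other microRNAs of the cluster, whose seeds are printed above, were read by 5 probe sets with 1 symbol. All 5 differences were below 0, from −0.04 to −0.19 (log2), and 0 were called in limma, with 1 at an unadjusted p under 0.05. That was Mir19b-1, at 6.70, 6.64 and 6.86 in knockdown cells and 6.89, 6.97 and 6.91 in control cells (adjusted p = 0.294). These probe sets read the amplified total RNA around the hairpin and share 1 transcript, so they are not separate readings, and mature microRNA was not measured.

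**Figure D4:**
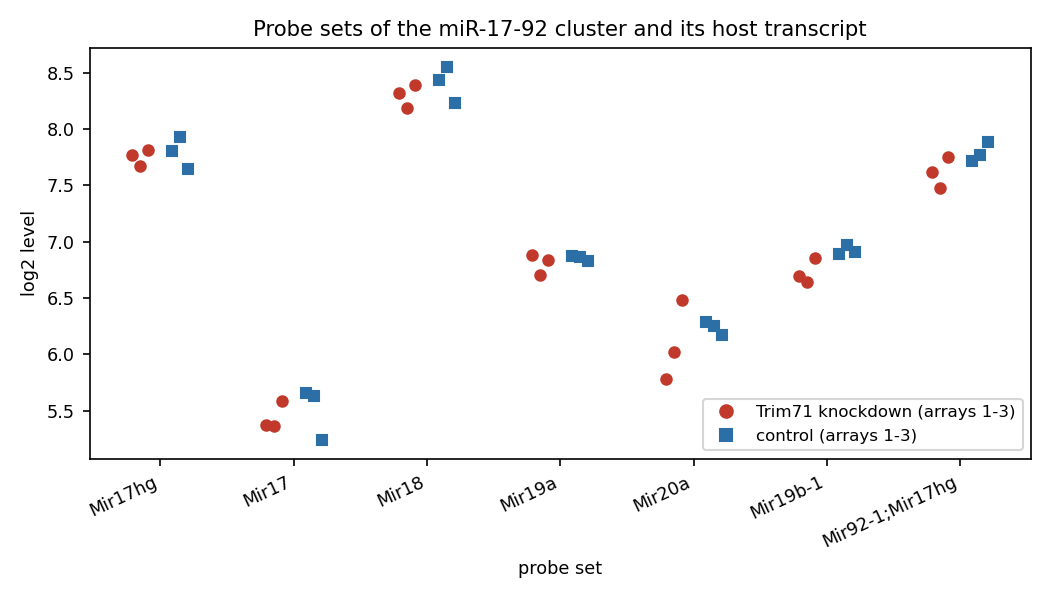
Log2 level on each array of the host transcript Mir17hg and of probe sets for microRNAs of its cluster, knockdown arrays left (circles) and control arrays right (squares) at each position. The groups overlap for every probe set except Mir19b-1, where the knockdown values of 6.64 to 6.86 lie just below the control values.

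Lincmd1, a muscle transcript that hosts Mir133b, was named by 1 probe set that it shares with that microRNA. It stood at 5.39, 5.34 and 5.09 (log2) on the knockdown arrays, against 5.38, 5.30 and 5.53 on the control arrays. The groups overlapped (difference −0.13, limma adjusted p = 0.637). The microRNA Mir206, also placed inside Lincmd1, was dim at a mean of 2.86 in knockdown cells and 2.81 in control cells, so a change there could hardly be seen.

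The next question was whether genes beside these transcripts differed too. For each of the 15 genes the nearest measured protein-coding gene on each side, and any that overlapped it, was taken from RefSeq, which gave 29 genes. Of the 29, 1 was called higher in limma, against 0.765% of the table, and 0 lower. That was Pkhd1, a gene of cilia and kidney tubules next to Lincmd1, which rose by 0.65 (SE 0.08, adjusted p = 0.0346), at dim levels that averaged 6.55 in knockdown cells and 5.90 in control cells.

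Beside Platr8, Lgr4, a receptor for R-spondins in Wnt signalling, averaged 9.71 (log2) in knockdown cells and 9.90 in control cells, and Lin7c, a scaffold protein gene, averaged 10.48 in knockdown cells and 10.35 in control cells. Their differences were −0.19 and 0.12, and neither was called in limma (adjusted p = 0.155 and 0.282). The groups did not overlap for either gene, as was so for 11 of the 29 neighbours in all and for 21% of all probe sets. The 2 neighbours of Platr8 lay on opposite sides of 0. Beside Platr25, 6720489N17Rik had a difference of 0.26 (adjusted p = 0.121), and was called with 1 probe set per gene (adjusted p = 0.0461). Beside Malat1, Ltbp3 and Frmd8 had differences of −0.06 and 0.02, with overlapping groups.

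Because the Platr name rests on pluripotency, 16 pluripotency transcription factors and cofactors were set beside it, all measured. In limma 0 were called higher and 1 lower, against 0.765% and 0.386% of all probe sets. Of the 16, 11 had an unadjusted p under 0.05, against 13.9% of all probe sets. The median difference was 0.15 (log2), against 0.01 over the table. The called gene was Tcl1, a cofactor of the kinase Akt, which fell by 0.46 (SE 0.06, adjusted p = 0.0361). Klf4 had the largest positive difference, at 9.90, 9.96 and 10.03 in knockdown cells and 9.62, 9.64 and 9.53 in control cells (adjusted p = 0.0551). With 1 probe set per gene, 4 were called higher and 1 lower, against 3.39% and 2.15% of all genes. Platr8 and Tcl1 were lower while 14 of these 16 genes had differences above 0.

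Markers described the cells themselves. The 12 embryonic stem cell markers averaged 11.40 to 11.45 (log2) per array in knockdown cells and 11.30 to 11.33 in control cells. In limma 0 of the 12 were called, and 7 had an unadjusted p under 0.05, against 13.9% of all probe sets. Of the 12 differences, 11 were above 0. This list overlaps that of the 16 pluripotency genes, with Klf4 in both, so the 2 are not separate observations. With 1 probe set per gene, limma called Klf4, Fgf4 and Zfp42 higher (adjusted p = 0.0141, 0.0231 and 0.0232), against 3.39% of all genes. The 1 difference below 0 was that of Lin28a, which blocks let-7 maturation, at −0.26 (adjusted p = 0.0573). Lin28a was called lower with 1 probe set per gene (adjusted p = 0.0178), against 2.15% of all genes. The 12 fibroblast markers, which would mark feeder cells, averaged 6.07 to 6.22 in knockdown cells and 6.20 to 6.31 in control cells. Of these, 1 was called in limma, against 1.15% of all probe sets. That was Acta2, a smooth muscle actin, which fell by 0.70 (adjusted p = 0.0361). Tagln had a difference of −0.34 with separate groups (adjusted p = 0.0734) and was called lower with 1 probe set per gene (adjusted p = 0.0212). The other fibroblast markers lay between −0.09 and 0.04, with overlapping groups. Among them Lum, Postn and Dcn were dim, at means of 3.34, 3.66 and 4.96 over all arrays, so a change there could hardly be seen. The collagen gene Col1a1 stood at 7.15, 7.03 and 6.87 in knockdown cells and 7.03, 6.97 and 7.11 in control cells. Of 7 measured lineage markers 1 was called in limma, against 1.15% of all probe sets. That was Pax6, a regulator of eye and brain, which fell by 0.76 (adjusted p = 0.0348). In the same list Nes, which encodes the neural progenitor filament nestin, had a difference of 0.27 with separate groups and was not called in limma (adjusted p = 0.129), but was called higher with 1 probe set per gene (adjusted p = 0.0497). The part of these marker shifts in the Platr8 value was not tested, and in bulk RNA fewer cells with a transcript and less of it per cell cannot be told apart.

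A wider list of 40 other noncoding RNAs had 17 measured members. In limma 2 of the 17 were called higher and 0 lower, against 0.765% and 0.386% of all probe sets. The median difference of the 17 was 0.03 (log2). Xist, the RNA that silences an X chromosome, stood at 5.81, 5.73 and 5.58 in knockdown cells and 5.19, 5.17 and 5.19 in control cells, and rose by 0.52 (SE 0.068, adjusted p = 0.0372). The levels were dim. The second was Ptprv, a transcribed pseudogene in RefSeq, which rose by 0.37 (adjusted p = 0.049). The abundant RNAs Tug1, Norad, Meg3 and Lncenc1, the last of which is active in naive embryonic stem cells, were not called, with adjusted p-values from 0.702 to 0.908.

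The calls among the 23 probe sets moved with the fit. With 1 probe set per gene 3 of the 12 genes tested were called, Platr8 lower, against 2.15% of genes, and Platr25 and Malat1 higher, against 3.39%. With a trended and robust prior 3 of the 23 were called, against 3.39% of all probe sets, and with array weights 3, against 3.59%. Without variance moderation 0 were called, against 0.596%.

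**Figure D5:**
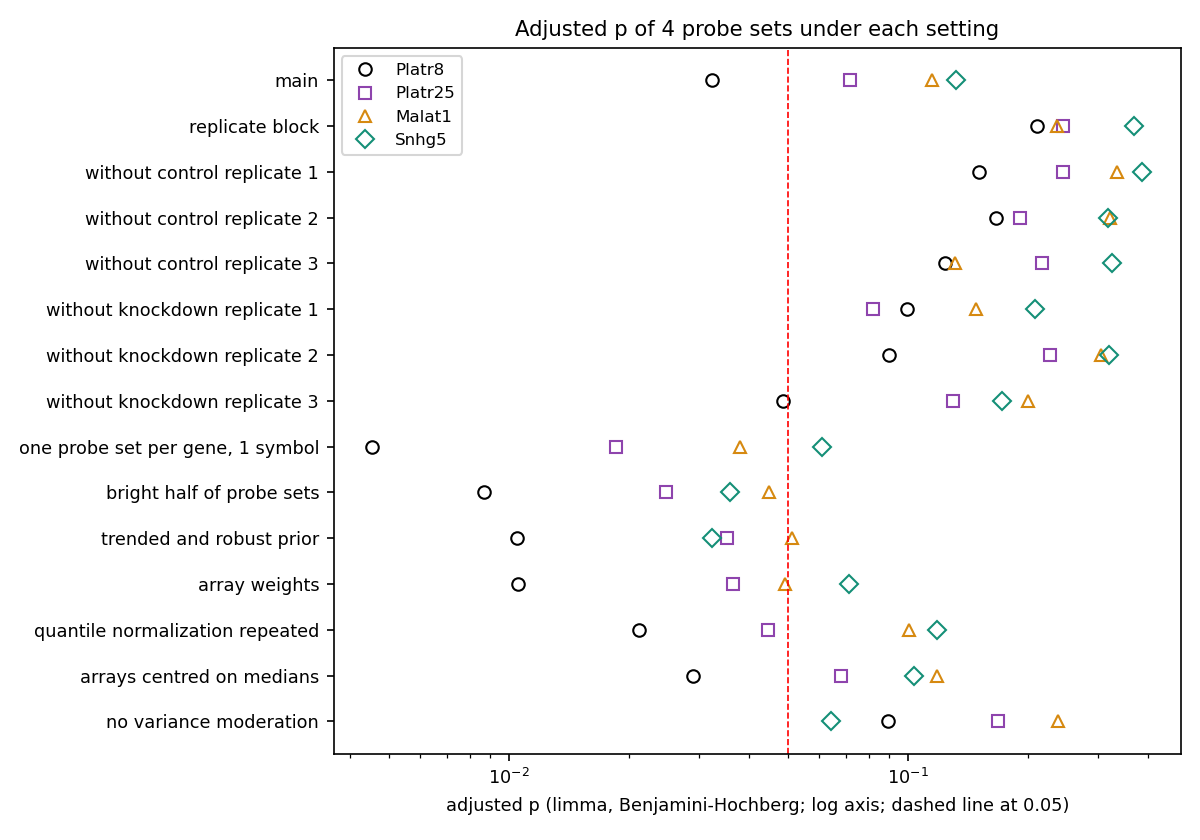
Adjusted p of Platr8, Platr25, Malat1 and Snhg5 in limma with all arrays and all probe sets (top) and under each of the 14 alternatives, on a log axis with a dashed line at 0.05. Platr8 lies under the line in 7 of 14 alternatives, Platr25 in 5, Malat1 in 3 and Snhg5 in 2.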

How the data were processed

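RNA was measured on whole-transcript Affymetrix arrays. The deposited series table holds log2 expression per probe set and array, made by the authors with RMA and the affy package, per the submitters' processing notes. Software versions and genome build: not given in the sources used here. Since RMA includes quantile normalization, a change shared by most transcripts would not show. The deposited values carry no detection call, and the number of arrays limits the precision.

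Gene symbols came from the platform annotation held by GEO, and may be outdated: 21640 had 1 symbol, 1321 several and 11799 were unnamed here. Group was the only term of a limma 3.58.1 fit (R 4.3.3, lmFit and eBayes) to all 34760 probe sets, with Benjamini-Hochberg adjustment over all of them and no intensity filter. Errors are standard errors of that fit unless named SD. For listed genes and neighbours the brightest probe set with 1 symbol was used. Tables and plots used Python 3.11.15, pandas 2.3.3 and matplotlib 3.10.9. The fit was tested on simulated data. Members, lists, the naming rule (every called member, all others with values or ranges, and up to 4 called genes per list) and alternatives were chosen with earlier results of these data known. Snord14e, which was called, and Pspc1, Klf4, Col1a1 and other uncalled genes were named after their values were seen.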

Additional observations from a re-analysis of the deposited data

How the results depend on the processing

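Of 309 values for the 23 probe sets under 14 alternatives, 0 reversed a called direction, and 7 lost a call, all of them Platr8. The count of called long noncoding RNA probe sets, 1 as reported, was 3 with 1 probe set per gene, 4 in the bright part of the table, 3 with a trended and robust prior, 3 with array weights, 2 after repeated quantile normalization and 0 without variance moderation, and 0 to 1 with an array left out. Calls over the whole table, 400 as reported, were 1103, 1466, 1179, 1249, 849 and 207 in the same order, and 1 to 93 with an array left out, where fewer arrays are fitted. Of 109 listed genes, 5 were called as reported, against 1.15% of all probe sets. The listed genes called were 15, 14, 16, 12, 10 and 3 in that order, and 0 to 2 with an array left out. The 15 with 1 probe set per gene stand against 5.53% of all genes. The first 2 of these settings test fewer probe sets, and for the others the cause was not tested. With 1 probe set per gene 12 members, 109 listed genes and 19937 probe sets in all were tested. In the bright part 21 members, 96 listed genes and 17380 probe sets in all were tested. Higher and lower calls were 266 and 134 as reported, 467 and 382 after repeated quantile normalization, and 218 and 200 with arrays centred on their medians. With the replicate number as a block, 0 members, 0 probe sets and 0 listed genes were called, and Trim71 kept its log2 difference of −1.52 at an adjusted p of 0.212. The deviations of same-numbered arrays correlated at −0.07, −0.05 and −0.22, and no array correlated best with its own number. These deviations are from the mean of 3 arrays in each group, which constrains the correlations. This check therefore cannot settle whether the numbers pair the arrays. Trim71 ranged from −1.53 to −1.51 with an array left out.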
